A study of Mus musculus with 8 samples.

Results

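The Tceal and Bex genes are a group of small X-linked genes that includes Tceal7, the member with the largest change in muscle lacking Gpcpd1. The 10 mouse members followed here were Tceal1, Tceal3, Tceal5, Tceal7, Tceal8, Tceal9, Bex1, Bex2, Bex3 and Bex4, out of 54532 genes in each count table. They were taken by gene symbol, and the group was chosen by its measured difference in CPM (read counts scaled for library size) between knockout and control muscle. The difference between genotypes is therefore given for the members as a description, with no p-value. Where their calls in the fit over all genes are counted, the count describes the choice of members and supports nothing. A member with fewer than 10 reads over all 8 libraries was counted as not detected. By that rule 7 members were detected and 3 were not.

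Bulk RNA from quadriceps, the large muscle at the front of the thigh, was profiled in mice aged 3 months and fed chow. The 4 knockout libraries came from Gpcpd1 Flox/Flox mice positive for MckCre, a Cre recombinase driven by the muscle creatine kinase promoter, which is active in skeletal and heart muscle fibres. The 4 control libraries came from Gpcpd1 Flox/Flox mice negative for Cre, so both groups carry the floxed alleles and the presence of Cre changes together with the loss of Gpcpd1. Gpcpd1 encodes an enzyme that splits glycerophosphocholine, and the study placed it in aging and glucose metabolism. Libraries were made with QuantSeq 3′ mRNA FWD, in which a transcript gives reads near its 3′ end, so reads count transcript ends and do not scale with length by design. Replicates were numbered within each group in the order of the library numbers, which pair no knockout with a control. The knockout libraries hold consecutive library numbers, with control libraries before and after them. The labels do not say that each library came from a separate mouse. Every p-value below therefore measures the spread between these libraries, which may be technical.

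Gpcpd1 itself had 145, 187, 193 and 181 reads in knockout libraries 1 to 4, against 736, 771, 688 and 711 reads in control libraries 1 to 4. Its log2 fold change, knockout over control as everywhere below, was -2.09 (standard error, SE, 0.10). Whether the 3′ reads lie inside the floxed exons is not given in the sources used here, so they do not check the deletion itself. Library totals ran from 4404116 to 5405999 reads, and 3 reads, taken as the floor of detection, amounted to between 0.557 and 0.646 CPM, with library totals scaled by the trimmed mean of M-values (TMM). Myofibre genes were abundant in all 8 libraries, with 10 of 10 markers tested. Xist had 0 or 1 read and the Y-linked Ddx3y between 647 and 885 reads in each library, so sex did not divide the groups.

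TCEAL proteins were named for their similarity to TFIIS, the factor that restarts stalled RNA polymerase II, and BEX stands for brain expressed X-linked. Both families encode short, highly charged proteins that are found in placental mammals and lie side by side on the X chromosome. They are best known from the nervous system. In mouse muscle, Tceal7 has been described as a gene switched on by myogenic transcription factors through E-boxes (the sequence CANNTG) and as a brake on myoblast proliferation, and Bex1 as a gene induced when muscle regenerates.

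All 10 members lay on the X chromosome between 136066564 and 136711478 of GRCm38, a span of 644.9 kb. Each has 1 coding exon, in the last exon of the model. The encoded proteins run from 98 residues for Tceal7, the shortest, to 200 residues for Tceal3 and Tceal5. The nearest relatives of Tceal7 among the members were Tceal8, with 38.5% identical residues, and Tceal9, with 35.1%. Tceal3 and Tceal5 were 80.7% identical, and Bex1 and Bex2 86.8%. Tceal3 was 98.0% identical to Tceal6, a further gene of the family.

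The start regions of these genes are shown because members with very different behaviour between genotypes share one short stretch there. RefSeq promoter windows (GRCm38.p6, 250 bases before to 50 after each annotated start) were found for 10 of 10 members. The palindrome CACGTG, an E-box that reads the same on both strands, was in the window of 8 of 10 members and in 7.15% of all 32851 windows. It was missing from Tceal9, which has CATGTG at the matching place, and from Bex2. With the looser form CANGTGA, on either strand, 9 of 10 members held a match, against 16.6% of all windows, and this form overlaps CACGTG where an A follows. The letters TGACG, searched on both strands, were in 10 of 10 members and in 20.8% of all windows. The general E-box CANNTG, of which CACGTG is 1 form, was in 10 of 10 members but also in 72.3% of all windows. Members were counted by gene, with 3 windows each for Tceal3 and Tceal5. A match is a description of the letters and not a binding site, and the motifs were picked after the sequences had been viewed. In the stretches below, 5′ to 3′ on the strand of the gene, capitals mark CACGTG or, in Tceal9, CATGTG.
Tceal7, chrX:136223956-136224013, plus strand: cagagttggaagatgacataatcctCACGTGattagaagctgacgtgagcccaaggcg
Tceal8, chrX:136172202-136172259, minus strand: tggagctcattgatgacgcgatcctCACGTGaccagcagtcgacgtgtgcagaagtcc
Tceal9, chrX:136245063-136245120, plus strand: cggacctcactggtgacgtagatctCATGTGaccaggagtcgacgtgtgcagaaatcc
Tceal5, chrX:136203867-136203924, minus strand: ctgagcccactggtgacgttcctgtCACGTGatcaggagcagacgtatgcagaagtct
Tceal1, chrX:136707956-136708013, plus strand: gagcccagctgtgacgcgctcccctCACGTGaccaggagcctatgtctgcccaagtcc
Bex1, chrX:136215484-136215541, minus strand: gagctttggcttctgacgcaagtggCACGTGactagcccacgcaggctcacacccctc
Bex3, chrX:136270255-136270302, plus strand: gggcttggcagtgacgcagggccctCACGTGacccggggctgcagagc

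The Tceal7 stretch differed from the others in its place. Its CACGTG began 60 bases before the annotated start, whereas in the other members that hold the stretch the first base of the hexamer lay from 15 bases before the start, in Tceal5, to position 27, in Bex3. Tceal7 was also the only member of 10 with the letters TATATA in its window, beginning 26 bases before the start. TATATA, which reads the same on both strands, was in 5.67% of all windows. The related form TATAAA, searched on both strands and held by 13.6% of all windows, was found in Bex2 alone among the members. The whole Tceal7 window is given because it is the promoter of the member with the largest difference, with CACGTG and TATATA in capitals.
Tceal7, chrX:136223791-136224090, plus strand: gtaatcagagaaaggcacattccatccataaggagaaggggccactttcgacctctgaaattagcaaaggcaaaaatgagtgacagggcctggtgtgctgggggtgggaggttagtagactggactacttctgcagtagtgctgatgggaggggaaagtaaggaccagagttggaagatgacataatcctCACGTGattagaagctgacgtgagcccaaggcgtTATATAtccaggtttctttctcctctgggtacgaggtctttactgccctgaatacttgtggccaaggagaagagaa

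Identical runs were sought between whole windows, the stretch around CACGTG included, so likeness outside it was not measured. Only 2 pairs shared a long run. Bex1 and Bex4 shared an identical run of 271 bases, and Bex2 and Bex3 one of 162 bases. The longest run shared by Tceal8 and Tceal9 was 17 bases, and that of Tceal7 with Tceal8 was 12 bases. Runs of these lengths lie within the stretches printed above. The windows of Bex1 and Bex4 are thus almost the same in sequence. Bex1 was detected in every library and Bex4 had no read in any. Reads that map to several places could have been lost from Bex4, and the cause of the difference was not tested.

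Tceal7 (ENSMUSG00000079428, chromosome X, 136214779 to 136226100, plus strand) was the member with the largest difference between genotypes. It stood at 94.7, 66.8, 71.3 and 81.3 CPM in knockout libraries 1 to 4, against 10.3, 10.1, 13.3 and 7.57 CPM in control libraries 1 to 4. The lowest knockout library lay far above the highest control library, and the groups did not overlap. In reads, Tceal7 had 452, 350, 384 and 381 in knockout libraries and 48, 50, 68 and 36 in control libraries. Its mean level was 78.5 ± 12.3 CPM in knockout and 10.3 ± 2.35 CPM in control muscle (SD, n = 4 each), a ratio of means of 7.60. The log2 fold change was 2.92 (SE 0.14), which ranked 13 among the 10691 genes tested.

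Tceal8 (ENSMUSG00000051579, chromosome X, 136168984 to 136172342, minus strand) was the next by size of difference, at a much lower level. It stood at 9.64, 11.8, 11.5 and 10.5 CPM in knockout libraries, against 5.17, 3.24, 5.48 and 5.46 CPM in control libraries. Every knockout library lay above every control library, and control library 2 was the lowest of all. The mean was 10.9 ± 1.01 CPM in knockout and 4.84 ± 1.07 CPM in control muscle, with a log2 fold change of 1.17 (SE 0.20).

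Tceal5 (ENSMUSG00000054034, chromosome X, 136200948 to 136203876, minus strand) showed a small difference with little spread. Its level was 46.5, 47.7, 45.3 and 43.9 CPM in knockout libraries, against 38.3, 34.3, 37.8 and 34.0 CPM in control libraries. The groups did not overlap, although the nearest libraries were close to each other. The mean was 45.9 ± 1.62 CPM in knockout and 36.1 ± 2.27 CPM in control muscle, with a log2 fold change of 0.35 (SE 0.10). Of the 50-base words in the last 500 bases of its transcript, 33.3% also occur in Tceal6 or Tceal3, so its count is uncertain where reads map to several places. Tceal6 had no read in any library.

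Tceal9 (ENSMUSG00000042712, chromosome X, 136245079 to 136247139, plus strand), also known as Wbp5 for its binding to WW protein domains, was about as abundant as Tceal5. It stood at 45.2, 45.3, 41.4 and 45.9 CPM in knockout libraries, against 40.9, 48.0, 40.3 and 38.0 CPM in control libraries. The highest and the lowest library were both controls, so the groups overlapped. The log2 fold change was 0.09 (SE 0.10). Tceal9 is among the closest relatives of Tceal7 in protein sequence and is the next member along the chromosome, on the same strand.

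Tceal1 (ENSMUSG00000049536, chromosome X, 136707982 to 136711478, plus strand), first described in human cells as a nuclear phosphoprotein that modulates transcription, was near the floor of detection. It had 10, 14, 25 and 9 reads in knockout libraries, against 11, 6, 11 and 11 reads in control libraries, which overlapped. The levels were 2.83 ± 1.25 CPM in knockout and 2.01 ± 0.54 CPM in control muscle, with a log2 fold change of 0.51 (SE 0.35). Tceal3, which was not detected, had 3 reads in all, 2 of them in knockout libraries and 1 in a control library. Its last 500 transcript bases shared 47.9% of their 50-base words with Tceal6 or Tceal5, so reads that map to several places could have been lost from it.

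Bex1 (ENSMUSG00000050071, chromosome X, 136213972 to 136215513, minus strand) was the most abundant Bex gene. It stood at 24.9, 21.2, 18.0 and 24.3 CPM in knockout libraries, against 26.3, 22.7, 28.2 and 20.6 CPM in control libraries. The lowest library was a knockout and the highest a control, with the others interleaved. The log2 fold change was -0.15 (SE 0.13). Bex1 lies antisense to Tceal7, and their annotated spans share 735 bases, from 136214779 to 136215513. That overlap holds the 5′ ends of both genes and is reached by an incomplete Tceal7 model, while the complete model and the RefSeq gene begin at 136224041. The ratio of Tceal7 to Bex1 reads within a library, which needs no scaling, was 3.80, 3.15, 3.96 and 3.34 in knockout libraries, against 0.39, 0.45, 0.47 and 0.37 in control libraries.

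Bex3 (ENSMUSG00000046432, chromosome X, 136270253 to 136271978, plus strand), known as a partner of the p75 neurotrophin receptor in cell death signalling, had 7, 15, 13 and 7 reads in knockout libraries, against 11, 9, 20 and 12 reads in control libraries. The groups overlapped, at 2.06 ± 0.69 CPM in knockout and 2.66 ± 0.89 CPM in control muscle. The log2 fold change was -0.35 (SE 0.34). Bex3, with 94 reads over the 8 libraries, and Tceal1, with 97, were the detected members with the fewest reads, and Tceal3, with 3, was the nearest below the detection rule of 10. Bex2 and Bex4 had no read in any library, which allows up to 3 reads in each, or at most 0.646 CPM. Bex4 shares 26.8% of the 50-base words in its last 500 transcript bases with other loci and Bex2 shares 14.4% with Bex1.

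**Figure D1:**
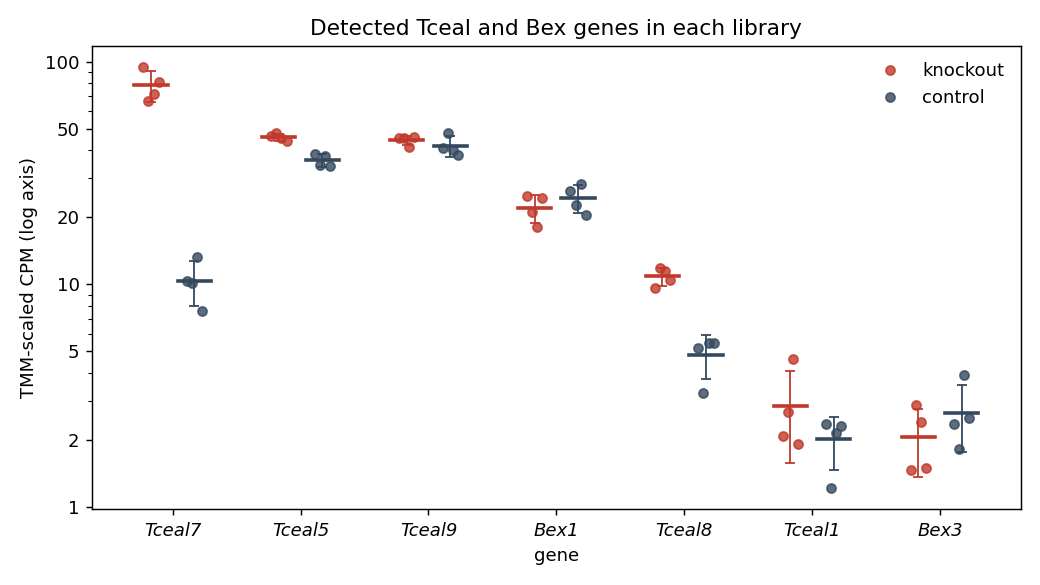
Level of each detected member in CPM on a log axis, with 1 point per library, knockout to the left of control, bars at the group means and whiskers of 1 SD. Tceal7, Tceal8 and Tceal5 have knockout points that all lie above the control points, whereas Tceal9, Tceal1, Bex1 and Bex3 overlap.

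Over all genes, 948 of 10691 tested genes were called higher in knockout muscle (8.87%) and 727 lower (6.80%), at an adjusted p of 0.05 in edgeR's quasi-likelihood test with Benjamini-Hochberg adjustment. Among the 7 members that passed the low-count filter, Tceal7, Tceal8 and Tceal5 were among the genes called higher, and the other 4 were not called. The same 3 members were those whose groups did not overlap with knockout above, which held for 10.3% of all tested genes, and 0 members had knockout below control without overlap, which held for 8.92%. Nothing is read from these counts, since the same contrast chose the group. The median log2 fold change was 0.35 over the 7 tested members and 0.01 over all tested genes.

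**Figure D2:**
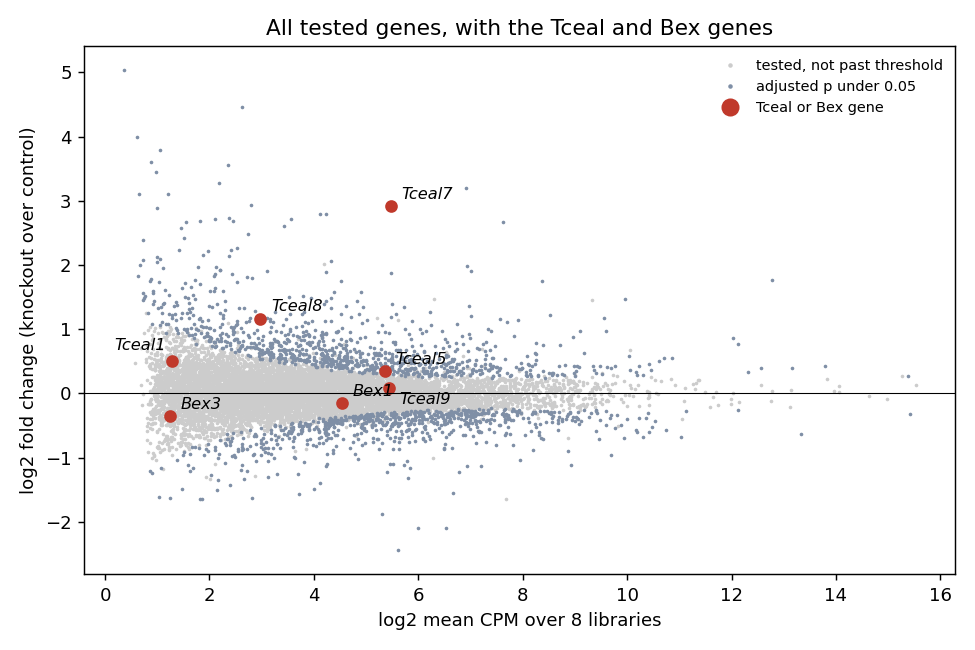
Log2 fold change (knockout over control) of the 10691 tested genes against their mean level in log2 CPM, with the 7 tested members marked. Tceal7 at 2.92 stands well above the other members, Tceal8 follows at 1.17, and the others lie between -0.35 for Bex3 and 0.51 for Tceal1.

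The members changed places by level. In knockout muscle the order from high to low was Tceal7, Tceal5, Tceal9, Bex1, Tceal8, Tceal1 and Bex3. In control muscle it was Tceal9, Tceal5, Bex1, Tceal7, Tceal8, Bex3 and Tceal1. Tceal5 and Tceal9 overlapped in both groups, as did Tceal1 and Bex3, so those neighbours are not separated beyond their spread.

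Summed over the detected members, the family stood at 206.7 ± 13.4 CPM in knockout and 122.2 ± 8.75 CPM in control muscle (SD, n = 4 each), with ranges of 194.7 to 224.6 CPM and 110.6 to 131.2 CPM. Tceal7 made up 37.8% ± 3.58 of the family's reads in knockout and 8.39% ± 1.36 in control muscle. Without Tceal7 the sum was 128.2 ± 3.54 CPM in knockout and 111.9 ± 6.53 CPM in control muscle. The Bex genes alone summed to 24.2 ± 2.68 CPM in knockout and 27.1 ± 4.08 CPM in control muscle, and these ranges overlapped. The ranges without Tceal7, 123.4 to 131.6 CPM in knockout and 103.0 to 117.9 CPM in control libraries, did not overlap either. That sum holds Tceal8 and Tceal5, whose own groups did not overlap. Nothing is read from these sums, since the same contrast chose the members.

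**Figure D3:**
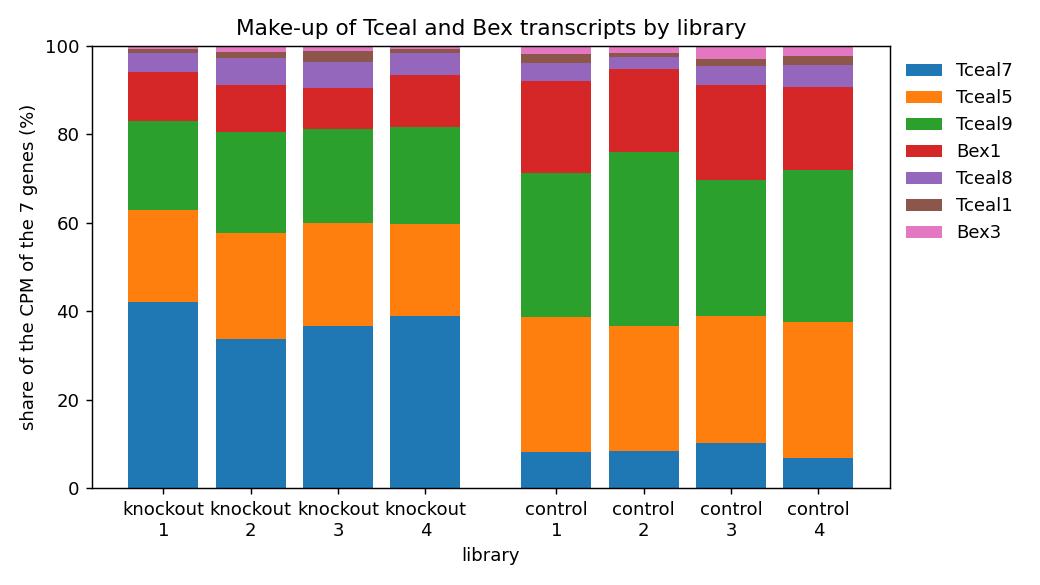
Share of each detected member in their summed CPM (%), with 1 stacked bar per library and knockout libraries to the left of control libraries. The Tceal7 segment fills 33.7% to 42.2% of the knockout bars and 6.84% to 10.1% of the control bars.

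The detected members share a chromosomal neighbourhood, which allows a look at genes that the choice of members did not use. Within 500 kb of the cluster, 70 other genes are annotated, 53 of them without a read, and 7 passed the low-count filter. Of these 7, edgeR called 1 higher, Bhlhb9, and 0 lower, with 0 lower at an unadjusted p of 0.05 and 0 lower in DESeq2 and limma voom. Their median log2 fold change was -0.01. Morf4l2, a chromatin gene in this interval, had a log2 fold change of -0.01, BC065397 0.21 and Fam199x -0.11, and none of these passed the threshold. Over the whole X chromosome, 28 of 289 tested genes were higher (9.69%) and 24 lower (8.30%), beside 8.87% and 6.80% of all genes.

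**Figure D4:**
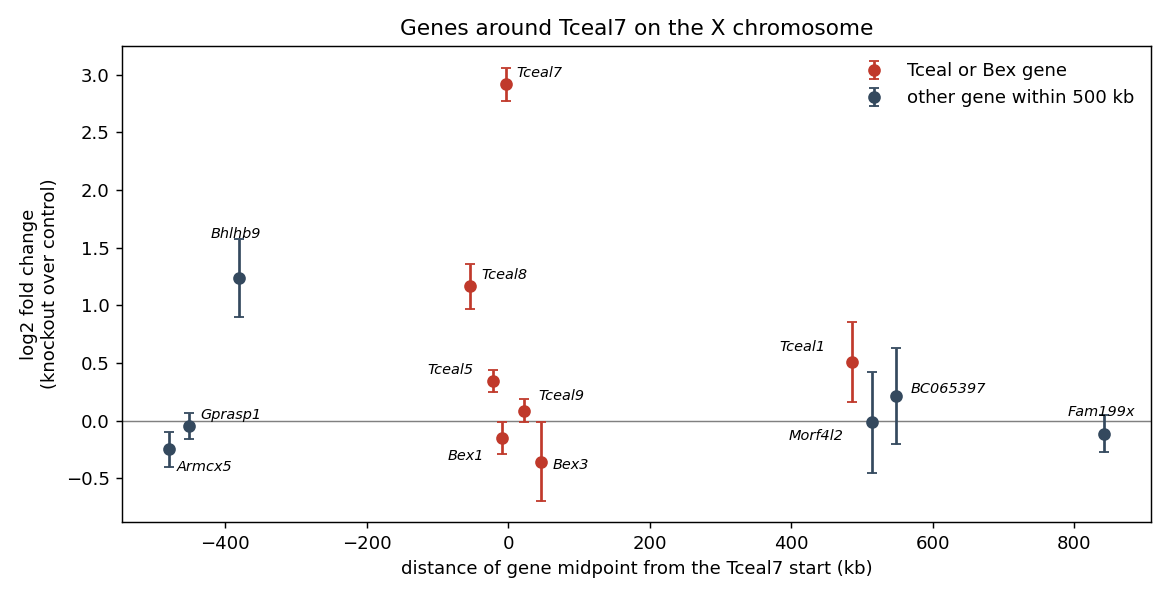
Log2 fold change (knockout over control) with its SE for the 7 tested members and 6 tested genes around them, against the distance in kb of each gene's midpoint from the Tceal7 start. Tceal7 at 2.92 lies between Bex1 at -0.15 and Tceal9 at 0.09.

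Bhlhb9 belongs to the Armcx and Gprasp genes, X-linked genes that lie beside the Tceal and Bex genes and are held to be related to them by a motif near the start. It had 23, 14, 18 and 16 reads in knockout libraries, against 5, 5, 12 and 7 reads in control libraries, with no overlap between the groups. Bhlhb9 rose to 3.56 ± 0.90 CPM in knockout muscle, against 1.48 ± 0.62 CPM in control muscle (log2 fold change 1.24, SE 0.34, edgeR adjusted p = 0.0126). Leaving out knockout library 1 ended that call (adjusted p = 0.053). Gprasp2, a sorting factor for G protein-coupled receptors, overlaps Bhlhb9 on the same strand, as does Gprasp1, so the counts of these genes are uncertain.

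Gprasp2 was too low for the main filter, with 11, 13, 14 and 7 reads in knockout libraries, against 5, 3, 4 and 4 reads in control libraries. Without a low-count filter its log2 fold change was 1.40 (SE 0.46, edgeR adjusted p = 0.0319). With control library 2 left out it passed the filter but was not called (edgeR adjusted p = 0.054). Gprasp2 was named after its value was seen. Of 12 related genes looked at, 6 were tested, with 1 called higher and 0 lower (0 lower at an unadjusted p of 0.05 in edgeR, 0 lower in DESeq2 and limma voom). The other tested relatives had log2 fold changes of -0.38 (SE 0.25) for Armcx2, 0.08 (SE 0.25) for Armcx4, -0.25 (SE 0.15) for Armcx5, -0.05 (SE 0.12) for Gprasp1 and 0.08 (SE 0.26) for Armc10. CACGTG was in the RefSeq window of 4 of 11 relatives found in the table, Armcx1, Armcx4, Armcx6 and Tceal6, and neither Bhlhb9 nor Gprasp2 was among them.

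The profile of Tceal7 across the 8 libraries was set beside those of the other tested genes, with predicted or unnamed genes and pseudogenes left out. Likeness was measured as the root mean square difference in log2 CPM (prior count 2) after the control mean of each gene was subtracted, and genes at low counts are pulled together by the prior. The nearest was Fibcd1, a chitin-binding membrane protein, at 0.220, followed by the kinase Prkcz at 0.286, Lrrc51 at 0.370, the transcription factor Irf5 at 0.420 and the profilin Pfn4 at 0.448. They were picked for this pattern, so their values carry no test. Fibcd1 had 13, 11, 11 and 15 reads in knockout libraries, against 0, 0, 1 and 0 reads in control libraries. Pfn4 had 18, 11, 11 and 17 reads in knockout libraries, against 2, 1, 0 and 0 reads in control libraries. The log2 fold change of Fibcd1 was 5.04 (SE 0.69), against 2.92 (SE 0.14) for Tceal7. The closeness of Fibcd1 to Tceal7 therefore depends on the prior count.

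Prkcz had 55, 43, 48 and 42 reads in knockout libraries, against 4, 5, 3 and 3 reads in control libraries. Irf5, known from interferon signalling in immune cells, had 78, 114, 98 and 121 reads in knockout libraries, against 18, 19, 13 and 10 reads in control libraries. Lrrc51 had 45, 50, 46 and 48 reads in knockout libraries, against 7, 9, 8 and 4 reads in control libraries. The groups of all 3 were far apart, as those of Tceal7 were. Lrrc51, Irf5 and Pfn4 each overlap a gene on the opposite strand and Prkcz an antisense transcript, so their counts are uncertain where strand was not used in counting.

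**Figure D5:**
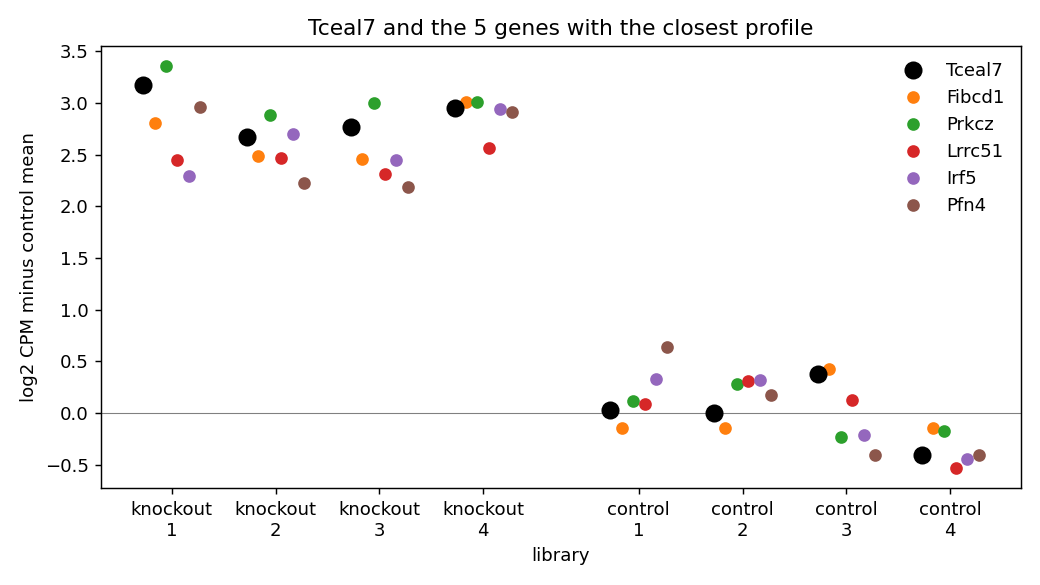
Log2 CPM (prior count 2) minus the gene's control mean in each library, for Tceal7 and the 5 genes with the most similar profile. Predicted or unnamed genes and pseudogenes were not compared. Knockout libraries are to the left. In all 6 genes the knockout points lie above the control points, with root mean square distances from Tceal7 of 0.220 to 0.448.

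Genes tied to the roles of the members were followed as lists, which were chosen with earlier results of these data known. Each list or marker count below is to be read beside all tested genes, of which 8.87% were called higher and 6.80% lower. Of 31 tested genes of transcription elongation, the process for which TFIIS is known, 2 were higher and 2 lower, with a median log2 fold change of -0.07, beside 0.01 over all tested genes. Ccnt2, a cyclin of the elongation kinase P-TEFb, rose (log2 fold change 0.54, SE 0.10, edgeR adjusted p = 0.00051), and Mllt3, a subunit of the super elongation complex, fell (log2 fold change -0.45, SE 0.08, edgeR adjusted p = 0.00024). Elob, a subunit of elongin, rose (log2 fold change 0.29, SE 0.08, edgeR adjusted p = 0.0192) but lost its call under 5 of 18 alternatives. The fourth called gene, Ssrp1 of the histone chaperone FACT, was named after its value was seen, and it fell (log2 fold change -0.29, edgeR adjusted p = 0.0311).

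Of 16 tested myogenic regulators, the class of factors described upstream of Tceal7 in the mouse, 0 were higher and 1 was lower. At an unadjusted p of 0.05 edgeR gave 1 higher, and DESeq2 and limma voom called 0 higher. Mef2a fell (log2 fold change -0.33, SE 0.09, edgeR adjusted p = 0.0156), a call lost without control library 4 (adjusted p = 0.065). Of 10 tested cell cycle genes, 2 were higher and 0 lower, with 0 lower at an unadjusted p of 0.05 in edgeR and 0 lower in DESeq2 and limma voom. Cdkn1a, an inhibitor of cyclin-dependent kinases, rose to 19.8 ± 4.80 CPM in knockout muscle, against 8.21 ± 1.22 CPM in control muscle (log2 fold change 1.26, SE 0.18, edgeR adjusted p = 1.7e-05). Ccnd3, a D-type cyclin, rose (log2 fold change 0.51, SE 0.14, edgeR adjusted p = 0.0120), a call lost without knockout library 4 or without control library 1.

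Of 10 tested genes of neurotrophin receptors and Bex partners, 0 were higher and 1 was lower. No gene of this list was higher at an unadjusted p of 0.05 in edgeR or was called higher by DESeq2 or limma voom. Sort1, a sorting receptor that pairs with p75, fell (log2 fold change -0.41, SE 0.09, edgeR adjusted p = 0.0031). Of 8 tested genes of immature and regenerating fibres, the setting in which Bex1 is known to be induced, 4 were higher and 0 lower. Their median log2 fold change was 0.51, with 0 lower at an unadjusted p of 0.05 in edgeR and 0 lower in DESeq2 and limma voom. Over all tested genes 8.87% were called higher. This list was chosen with earlier results of these data known, so its count is a description. Cardiac actin Actc1 rose by a log2 fold change of 2.67 (SE 0.29), the imprinted RNA H19 by 1.23 (SE 0.17) and perinatal myosin Myh8 by 0.96 (SE 0.17), at edgeR adjusted p-values of 0.0011, 0.00050 and 0.00024. The fourth, the acetylcholine receptor subunit Chrna1, was named after its value was seen, and its log2 fold change was 0.60 (edgeR adjusted p = 0.0184). DESeq2 called 3 of these 4 genes higher, without Chrna1, and limma voom called 4.

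In bulk muscle, more cells of a type and more RNA per cell cannot be told apart, so markers of other cells were read beside the members. Neuronal markers, for which the family is best known, summed to between 12.8 and 25.1 CPM in knockout and between 11.3 and 16.8 CPM in control libraries. Nefl and Chat had no read in any library and Snap25 had 1, and of 3 tested neuronal genes none passed the threshold. Schwann cell markers summed to between 65.5 and 73.9 CPM in knockout and between 59.7 and 85.7 CPM in control libraries. None of 6 Schwann cell, 5 satellite cell, 9 endothelial, 8 pericyte and 6 adipocyte genes tested was called. The edgeR, DESeq2 and limma voom counts were 0 for each of these lists and for neurons, and at an unadjusted p of 0.05 edgeR gave 1 endothelial gene lower and 1 pericyte gene higher. Among the genes of lowest p in these lists, the log2 fold change was 0.68 (SE 0.33) for Uchl1 in neurons, -0.42 for Musk in the satellite cell list, -0.22 for Egfl7 in endothelium, 0.57 for Cspg4 in pericytes and -0.48 for Lep in adipocytes.

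Of 8 tested macrophage genes 3 were lower in edgeR and DESeq2 and 2 in limma voom. At an unadjusted p of 0.05 edgeR gave 4 lower. Of the 8 genes, 0 had a log2 fold change above 0, and the median was -0.49. Those called by edgeR were Cd163 (log2 fold change -0.75, SE 0.18), C1qb (-0.83, SE 0.21) and Csf1r (-0.59, SE 0.19), at edgeR adjusted p-values of 0.0048, 0.0077 and 0.039. The Csf1r call was lost under 8 of 18 alternatives. Summed macrophage markers ran from 66.6 to 110.2 CPM in knockout and from 93.5 to 154.9 CPM in control libraries, which overlapped. Among 9 tested fibro-adipogenic progenitor genes 1 was lower, Dcn (log2 fold change -0.27, SE 0.09, edgeR adjusted p = 0.039), which lost its call under 5 of 18 alternatives. At an unadjusted p of 0.05 edgeR gave 4 lower and 0 higher in this list. Only 1 of the 9 genes had a log2 fold change above 0, and the median was -0.21. Their sums ran from 848.0 to 1144.5 CPM in knockout and from 1132.7 to 1361.5 CPM in control libraries, which overlapped. Among 10 myofibre genes 2 were higher, Mylpf (log2 fold change 0.43) and Acta1 (0.26), and 1 was lower, Myh4 (-0.31). The Acta1 call was lost under 11 of 18 alternatives. The part of any of these cell types in the difference of Tceal7, Tceal8 or Tceal5 was not tested.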

How the data were processed

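In each library's table the authors deposited unnormalized counts of reads for every Ensembl gene, per the file headers. Tools and builds named in the submitters' processing notes are Bowtie2 2.3.4.1, featureCounts, Subread 1.6.2, GRCm38 and mm10. No source used here gives the annotation release, the strand setting or what was done with multi-mapping reads. Of 54532 genes, 54409 were matched to GENCODE M21 (GRCm38).

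The analysis used edgeR 4.0.16 in R 4.3.3. filterByExpr (minimum count 10, minimum total 15) kept 10691 genes, with 99.5% to 99.6% of the reads in a library. After TMM scaling, knockout was compared with control by the robust quasi-likelihood F test, with Benjamini-Hochberg adjustment over all 10691 genes and a threshold of 0.05. The SE of a log2 fold change was taken as its size over the root of F. Totals were 4404116 to 5405999 reads, and floors of 3 reads cover counting error only. No pair of libraries agreed within sampling noise (chi-square per degree of freedom at least 2.33). The procedure was tested on simulated data.

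Alternatives were DESeq2 1.42.0, limma 3.58.1 voom, other scalings and low-count filters, edgeR without robust estimation, thinning, the library number as covariate and leaving out each library. The members and gene lists were chosen with earlier results of these data known. The rule for named genes took the members, the tested relatives and the 5 profiles nearest to Tceal7, without predicted or unnamed genes and pseudogenes. It also took up to 3 called genes of lowest p per list, or 1 as a value. Gprasp2, Tceal6, Ssrp1, Chrna1, the neighbours and the markers at 0 or 1 read were named after their values were seen. RefSeq promoters (GRCm38.p6) were searched for exact motifs. Some items are not reported here.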

Additional observations from a re-analysis of the deposited data

Results flagged for a closer look

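In 4 of 90 groups of 4 libraries checked, 1 library stood apart from the other 3 by more than 0.829 of the group's range (Dixon's criterion), and chance flags about 5% of groups. Tceal8 in control muscle had a gap of 0.86 of the range, with control library 2 at 3.24 CPM and the others between 5.17 and 5.48 CPM. Tceal9 in knockout muscle had a gap of 0.861, with knockout library 3 at 41.4 CPM and the others between 45.2 and 45.9 CPM. Fibcd1 in control muscle had a gap of 1, since control library 3 held the only read, at 0.196 CPM. Musk, a receptor of the neuromuscular junction, had a gap of 0.882 in knockout muscle, with knockout library 3 at 3.90 CPM and the others between 2.86 and 2.99 CPM.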

How the results depend on the processing

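Under 18 alternatives the log2 fold change of Tceal7 ran from 2.79 to 3.05, that of Tceal8 from 1.00 to 1.35 and that of Tceal5 from 0.31 to 0.37, values of the contrast that chose the members. It ran from 0.03 to 0.15 for Tceal9 and from -0.23 to -0.06 for Bex1, and, under the 17 that gave a value, from 0.16 to 0.64 for Tceal1 and from -0.55 to -0.11 for Bex3. The count of related genes called higher and that of neighbours called higher, 1 each, became 2 without a low-count filter and 0 with at least 5 CPM in 4 libraries, and ran from 0 to 2 with 1 library left out. It was 0 without knockout library 1, where Bhlhb9 was not called, and 2 without knockout library 4 or control library 1, 3 or 4, where Gprasp2 passed the filter and was called. Over the lists other than cell type markers, 4 genes were called lower. That count became 7 with DESeq2 size factors, 7 with library totals alone and 7 with upper-quartile scaling, and the cause was not tested. A few uncalled relatives changed sign with 1 library left out. Their log2 fold changes ran from -0.086 to 0.22 for Armcx4, from -0.087 to 0.0019 for Gprasp1 and from -0.21 to 0.21 for Armc10. Armcx4 was at -0.086 without knockout library 1 and -0.06 without control library 2, Gprasp1 at 0.0019 without control library 3, and Armc10 at -0.21 without knockout library 2 and -0.05 without control library 4. No paired analysis was possible because replicate numbers follow accession order and the labels give each library a number of its own. At these depths Tceal1, Bex3 and Gprasp2, with 25 reads or fewer in a library, are the least precise, and a difference in Tceal3, Bex2 or Bex4 was not detectable.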
